A study of Homo sapiens with 18 samples.

Results

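The interleukin-6 cytokine family was followed in human BJ skin fibroblasts after knockdown or overexpression of PURPL, a long noncoding RNA. The family was taken as the 10 genes IL6, LIF, IL11, CLCF1, IL6R, IL6ST, LIFR, OSMR, IL11RA and SOCS3, found by gene name among the 61544 genes of both count tables. They comprise 4 ligands, 5 receptor chains and 1 feedback gene. Of these 10 genes, 8 had enough reads to be tested, and CLCF1 and IL11RA did not.

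Poly(A) RNA of BJ human skin fibroblasts was sequenced in 18 libraries, 6 groups of 3. In the knockdown experiment, sgRNA-PURPL#1 and sgRNA-PURPL#2 (guides 1 and 2) target PURPL by CRISPR interference, which silences a gene through a guide RNA and a repressor, and sgCtrl carries a control guide. In the overexpression experiment, PURPL#1-OE and PURPL#2-OE (here lines 1 and 2) overexpress PURPL and Ctrl is their own control. The labels give no time point, culture age, vector or promoter, and they do not say whether the 2 guide groups or the 2 lines are clones, constructs or separate infections. They also do not say whether libraries of a group came from separate cultures, so p-values measure the spread between these libraries, which may be technical.

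Most cytokines of the interleukin-6 family share the signalling chain gp130, encoded by IL6ST. IL6 and IL11 first bind a private receptor, IL6R or IL11RA, and then recruit gp130, whereas LIF and CLCF1 signal through gp130 paired with LIFR, and OSMR pairs with gp130 to receive oncostatin M. The assembled receptor activates JAK kinases and the transcription factor STAT3, which induces SOCS3, an inhibitor that binds gp130 and closes the loop. IL6 is a well known secreted product of senescent fibroblasts, cells that have left the cell cycle for good.

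The knockdown libraries held 11444513 to 12896040 counts each, and those of the overexpression experiment 18858976 to 27985649. Levels are CPM (counts scaled to a fixed library total) after scaling of library sizes by TMM, separately in each table, so levels set side by side across the tables were not tested. PURPL had 17.9, 15.2 and 14.1 with guide 1 and 19.0, 21.5 and 17.9 with guide 2, against 71.1, 77.0 and 94.3 CPM in sgCtrl. It had 166, 178 and 176 in line 1 and 125, 129 and 114 in line 2, against 67.3, 66.7 and 59.2 CPM in Ctrl. No library's PURPL level went against its label. Within a group, the pair of libraries that differed most was sgCtrl replicates 1 and 3, with a chi-square per gene of 10.6, against 2.47 to 8.71 for the other pairs within groups. For family genes, results that change when an sgCtrl library is left out are given with and without it, or as a range. No such values are given for genes outside the family.

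The bases just upstream of IL6 and IL11 are shown because IL6 was the ligand with the largest change and IL11 the ligand whose change passed in no comparison. Each run holds the 250 bases before the start site that RefSeq annotates on GRCh38.p14. IL6 lies at chr7:22726950-22727199 on the plus strand and IL11 at chr19:55370464-55370713 on the minus strand, written in the direction of transcription. Capitals mark matches to motifs known from cytokine promoters, searched on both strands as GGGA and CC with any 4 bases between them for NF-kappaB, TTGCNNAA for C/EBP, TGANTCA for AP-1 and TTCNNNGAA for STAT factors.

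IL6: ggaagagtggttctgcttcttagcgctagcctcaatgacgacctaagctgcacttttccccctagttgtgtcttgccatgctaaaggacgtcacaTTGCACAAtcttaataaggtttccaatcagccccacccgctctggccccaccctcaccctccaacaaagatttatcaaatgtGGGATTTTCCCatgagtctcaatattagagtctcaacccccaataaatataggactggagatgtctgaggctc

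IL11: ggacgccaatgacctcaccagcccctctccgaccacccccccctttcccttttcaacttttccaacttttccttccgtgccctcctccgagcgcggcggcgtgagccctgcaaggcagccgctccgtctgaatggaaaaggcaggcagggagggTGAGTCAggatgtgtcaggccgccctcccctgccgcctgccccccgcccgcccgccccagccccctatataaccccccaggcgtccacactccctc

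The IL6 window held an NF-kappaB match, GGGATTTTCC, 73 to 64 bases before the start, overlapped by a match on the other strand, and a C/EBP match, TTGCACAA, 155 to 148 bases before it. The IL11 window held 1 AP-1 match, TGAGTCA, 96 to 90 bases before the start, which reads the same motif on both strands. Among 35116 RefSeq promoter windows of this length, 22.6% held the NF-kappaB motif, 9.05% the C/EBP motif, 6.57% the AP-1 motif and 6.57% the STAT motif. RefSeq windows were found for 8 of the 10 family genes, all except LIF and CLCF1. NF-kappaB matches were also seen in the windows of IL6R, IL6ST and OSMR. C/EBP matches were also seen in windows of LIFR and OSMR, and STAT matches in windows of LIFR. A match describes letters only and says nothing about binding. RefSeq starts IL6 at base 22727200, whereas the count tables start the gene at base 22725884 of chromosome 7.

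CLCF1 and IL11RA could not be read from these tables. Reads were counted over whole gene spans and by strand, and none of the 9429 genes nested inside another gene of the same strand had any count. IL11RA (chr9:34652162-34661902, plus strand), the private receptor of IL11, had 0 counts in all 18 libraries, and 99.8% of its span, all but 16 bases, lies inside a same-strand protein-coding gene listed only as ENSG00000258728. CLCF1 (chr11:67364168-67374177, minus strand), a ligand that acts through LIFR, had 2 counts in guide 2 replicate 3, 1 count in each of 2 libraries of line 2 and 0 elsewhere, and 94.1% of its span lies inside the same-strand gene ENSG00000256514. These neighbours had 0 to 10 counts in each knockdown library and 4 to 27 in each overexpression library. A count of 0 allows a level up to 3 counts, which is 0.107 to 0.262 CPM by library, for counting error only and only for the bases that could be counted. The other 8 genes have no same-strand overlap except LIFR, which shares 60 bases with MIR3650. On the opposite strand, IL6, LIF, IL6R, IL6ST, LIFR and OSMR overlap other genes (IL6-AS1, LIF-AS1, IL6R-AS1, LIFR-AS1 and RICTOR among them), and that counting followed strand was read from the tables, not stated.

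IL6 and LIF were the family genes that moved most, and they moved with overexpression. IL6 (chr7:22725884-22732002, plus strand), the founding cytokine of the family, had 2.43, 1.98 and 2.02 in line 1 and 1.60, 2.41 and 2.05 in line 2, against 14.7, 15.9 and 14.1 CPM in Ctrl. All 6 overexpression libraries lay far below all 3 controls, and the lines overlapped each other. IL6 was 6.9-fold lower in line 1 (log2 -2.79 ± 0.141 SE, adjusted p = 2.52e-16, edgeR quasi-likelihood test) and 7.31-fold lower in line 2 (-2.87 ± 0.146, adjusted p = 3.51e-16). In bulk RNA, fewer expressing cells and less RNA per cell cannot be told apart.

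LIF (chr22:30240453-30246759, minus strand), a cytokine that binds LIFR, fell alongside IL6. It had 0.572, 0.540 and 0.475 in line 1 and 0.693, 0.509 and 0.615 in line 2, against 3.35, 3.6 and 3.31 CPM in Ctrl. The highest overexpression library lay below the lowest control. The level in line 1 was 15.6% of Ctrl (log2 -2.68 ± 0.254, adjusted p = 4.81e-10) and that in line 2 was 17.7% (-2.50 ± 0.257, adjusted p = 2.89e-09). These rest on 11 to 16 counts per overexpression library and 64 to 92 counts per Ctrl library.

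IL11 (chr19:55364382-55370463, minus strand), a cytokine that stromal cells make in response to TGF-beta, did not pass in either line. It had 1.86, 1.75 and 1.58 in line 1 and 2.13, 1.39 and 1.68 in line 2, against 2.30, 1.84 and 2.48 CPM in Ctrl. The groups overlapped, and the log2 fold changes were -0.34 ± 0.224 (adjusted p = 0.247) and -0.35 ± 0.230 (adjusted p = 0.245).

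With knockdown, 0 of the 3 tested ligands passed with either guide by edgeR, where 24.5% of all genes tested were called with guide 1 and 24.4% with guide 2, and 0 passed by DESeq2. At an unadjusted p under 0.05, 0 passed with guide 1 and 2 with guide 2. IL6 had 0.778, 1.35 and 1.40 with guide 1 and 2.07, 1.60 and 1.96 with guide 2, against 1.48, 0.623 and 1.02 CPM in sgCtrl. Every guide 2 library lay above every sgCtrl library, but these levels rest on 8 to 25 counts each. The log2 fold change was 0.18 ± 0.368 with guide 1 (adjusted p = 0.773) and 0.86 ± 0.336 with guide 2 (adjusted p = 0.0604). Without sgCtrl replicate 1, the guide 2 value was 1.18 and its adjusted p 0.0235, so that library decides the call; over all alternatives the adjusted p ran from 0.0235 to 0.265. The Ctrl libraries of the other experiment held IL6 at 14.9 ± 0.929 CPM and sgCtrl at 1.04 ± 0.426 CPM (SD, n = 3 each), levels from tables scaled separately.

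LIF had 1.87, 0.713 and 2.44 with guide 1 and 1.32, 2.01 and 2.82 with guide 2, against 1.65, 1.32 and 1.33 CPM in sgCtrl. The groups overlapped, with log2 fold changes of 0.21 ± 0.361 (adjusted p = 0.727) and 0.53 ± 0.347 (adjusted p = 0.298). IL11 had 1.40, 1.27 and 1.74 with guide 1 and 1.90, 2.1 and 3.29 with guide 2, against 1.82, 1.25 and 1.64 CPM in sgCtrl. Guide 2 libraries lay above the controls and guide 1 libraries among them, and the log2 fold changes were -0.09 ± 0.313 (adjusted p = 0.866) and 0.64 ± 0.285 (adjusted p = 0.104). At this depth no ligand passed with either guide when all libraries were kept. IL6 and IL11 of guide 2 lay above all sgCtrl libraries without passing.

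**Figure D1:**
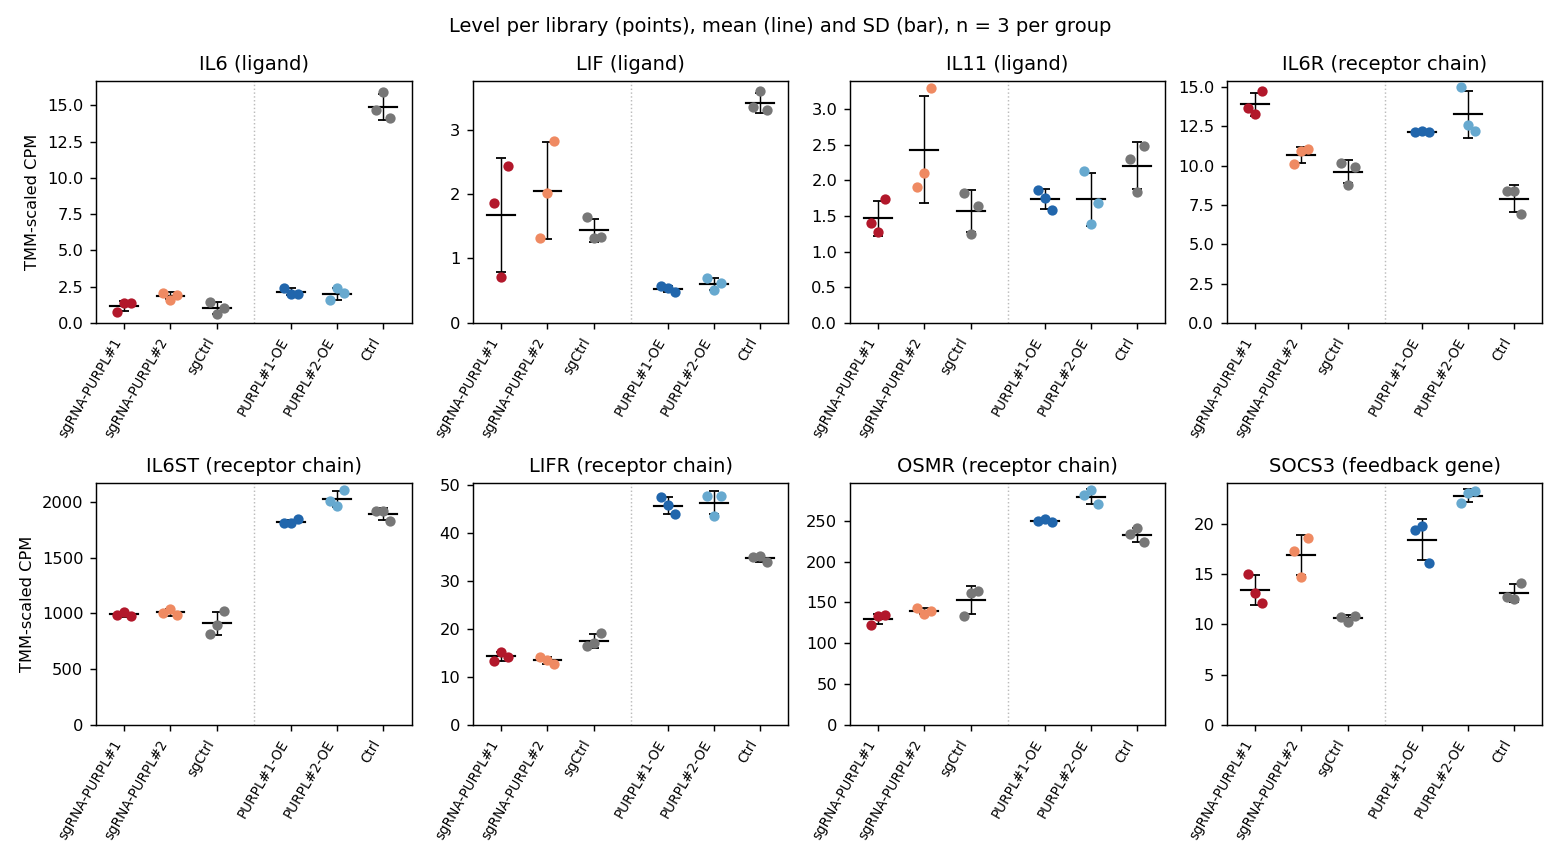
TMM-scaled CPM (vertical axes, each from 0) of the 8 tested family genes in each library (points), with the group mean (line) and SD (bar), n = 3 per group; knockdown groups stand left of the dotted line and overexpression groups right of it. IL6 and LIF are low in lines 1 and 2 beside Ctrl, whereas IL6R, LIFR and SOCS3 of the lines sit above Ctrl.

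With overexpression, IL6R and LIFR rose in both lines and OSMR in line 2, all by less than IL6 and LIF fell. IL6R (chr1:154405193-154469450, plus strand), the private receptor of IL6, had 12.1, 12.2 and 12.1 in line 1 and 15, 12.6 and 12.2 in line 2, against 8.38, 8.40 and 6.92 CPM in Ctrl. All overexpression libraries lay above all controls. IL6R was 1.53-fold higher in line 1 (log2 0.61 ± 0.109, adjusted p = 3.42e-05) and 1.66-fold higher in line 2 (0.73 ± 0.11, adjusted p = 2.76e-06).

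IL6R was also higher with guide 1, at 13.7, 13.3 and 14.7 CPM, against 10.2, 8.79 and 9.94 CPM in sgCtrl (log2 0.53 ± 0.117, adjusted p = 0.000915). With guide 2 it had 10.1, 10.9 and 11 CPM, a range that met the top of sgCtrl, and did not pass (0.15 ± 0.121, adjusted p = 0.405). Guide 2 lay below guide 1 by 0.38 on the log2 scale (-0.38 ± 0.115, adjusted p = 0.0327), so the guides differed in this gene. That difference did not pass with DESeq2 (adjusted p = 0.134) or without any 1 of the 6 guide libraries (adjusted p = 0.0633 to 0.145), and its adjusted p ran from 0.0168 to 0.145 over all alternatives.

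LIFR (chr5:38474668-38608354, minus strand), the chain that pairs with gp130 for LIF, moved in opposite directions in the 2 experiments. It had 47.5, 45.8 and 43.9 in line 1 and 47.8, 43.6 and 47.7 in line 2, against 35.0, 35.3 and 34.0 CPM in Ctrl, with no overlap. The log2 fold changes were 0.40 ± 0.0640 (adjusted p = 8.11e-06) and 0.41 ± 0.0645 (adjusted p = 4.9e-06). With knockdown it had 13.4, 15.1 and 14.2 with guide 1 and 14.2, 13.4 and 12.6 with guide 2, against 16.4, 17.0 and 19.2 CPM in sgCtrl. Every guide library lay below every sgCtrl library. LIFR fell by 0.39 with guide 2 (-0.39 ± 0.106, adjusted p = 0.00747) and by 0.30 with guide 1 (-0.30 ± 0.105, adjusted p = 0.0361). The guide 1 call is weak, since it was lost with DESeq2 (adjusted p = 0.123), with no filter on low counts (adjusted p = 0.0752), with the replicate number as a block (adjusted p = 0.0502) and without any 1 of sgCtrl replicates 2 and 3 or guide 1 replicates 1 and 3 (adjusted p = 0.0548 to 0.153). Over all alternatives its adjusted p ran from 0.0197 to 0.153.

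OSMR (chr5:38845858-38945596, plus strand), the chain for oncostatin M, lies near LIFR on chromosome 5. It had 250, 252 and 249 in line 1 and 282, 287 and 270.3 in line 2, against 234, 241 and 224 CPM in Ctrl. Both lines lay above Ctrl, but by little. Line 2 passed (log2 0.26 ± 0.0494, adjusted p = 7.06e-05) and line 1 did not (0.10 ± 0.0494, adjusted p = 0.0963). With knockdown it had 123, 133 and 134 with guide 1 and 144, 136 and 139 with guide 2, against 133, 162 and 164 CPM in sgCtrl. Guide 1 overlapped the lowest control, sgCtrl replicate 1, guide 2 lay above it, and both lay below the other two controls. The log2 fold change was -0.24 ± 0.0695 with guide 1 (adjusted p = 0.0114) and -0.13 ± 0.0693 with guide 2 (adjusted p = 0.175). Without sgCtrl replicate 1 guide 2 passed as well, at -0.23 (adjusted p = 0.00253), whereas guide 1 was lost without sgCtrl replicate 2 (adjusted p = 0.0772) or without guide 1 replicate 1 (adjusted p = 0.0769). Over all alternatives the adjusted p ran from 9.56e-06 to 0.0772 with guide 1 and from 0.00253 to 0.484 with guide 2.

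IL6ST (chr5:55935095-55995022, minus strand), the gp130 chain that IL6, LIF, IL11 and CLCF1 use, did not pass in any comparison with control. It had 1811, 1812 and 1844 in line 1 and 2012, 1963 and 2107 in line 2, against 1915, 1922 and 1826 CPM in Ctrl. Line 1 met the lower end of Ctrl and line 2 lay above it, with log2 fold changes of -0.05 ± 0.0503 (adjusted p = 0.453) and 0.10 ± 0.0503 (adjusted p = 0.109). With knockdown it had 980, 1014 and 979 with guide 1 and 1001, 1039 and 981 with guide 2, against 817, 893 and 1023 CPM in sgCtrl. The controls spread more widely than the guides, and the log2 fold changes were 0.12 ± 0.0648 (adjusted p = 0.183) and 0.14 ± 0.0648 (adjusted p = 0.107). Without sgCtrl replicate 3 both guides passed, at 0.21 (adjusted p = 0.00612) and 0.24 (adjusted p = 0.00255), within ranges of 0.00612 to 0.631 and 0.00255 to 0.385 over all alternatives.

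SOCS3 (chr17:78356778-78360077, minus strand), the feedback inhibitor, was higher in all 4 comparisons with control. It had 19.5, 19.8 and 16.1 in line 1 and 22.1, 23.1 and 23.3 in line 2, against 12.7, 12.5 and 14.2 CPM in Ctrl. It had 15, 13.2 and 12.1 with guide 1 and 17.4, 14.7 and 18.6 with guide 2, against 10.8, 10.3 and 10.9 CPM in sgCtrl. No library of the targeted groups overlapped its controls. The log2 fold change was 0.50 ± 0.0941 in line 1 (adjusted p = 7.95e-05), 0.80 ± 0.0937 in line 2 (adjusted p = 3.27e-08), 0.67 ± 0.117 with guide 2 (adjusted p = 6.14e-05) and 0.34 ± 0.121 with guide 1 (adjusted p = 0.039). The guide 1 call was lost with DESeq2 (adjusted p = 0.117) and without any 1 of 5 libraries, which are sgCtrl replicates 1 and 2, guide 1 replicates 1 and 2 and guide 2 replicate 1 (adjusted p = 0.0514 to 0.227, and from 0.0325 over all alternatives).

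**Figure D2:**
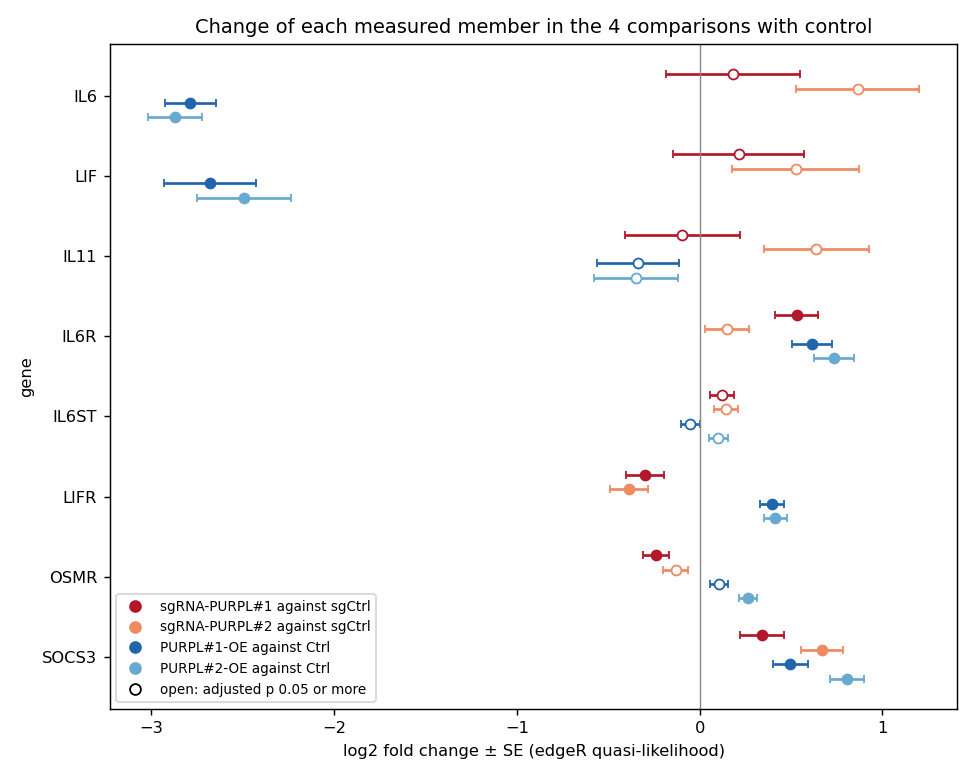
Log2 fold change (horizontal axis, with SE) of the 8 tested family genes in the 4 comparisons with control; filled points passed at an adjusted p under 0.05 (edgeR). IL6 and LIF stand between -2.87 and -2.50 in both overexpression lines, and every other value lies between -0.39 and 0.86.

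Counted over the family, 2 of the 8 tested genes were higher and 2 lower with guide 1, where 24.5% of the 13923 genes tested were called, 11.6% higher and 12.9% lower. With guide 2, 1 was higher and 1 lower, beside 24.4% of all genes tested (11.9% higher, 12.4% lower). In line 1, 3 were higher and 2 lower, beside 39.6% of 15267 genes (19.5% higher, 20.1% lower). In line 2, 4 were higher and 2 lower, beside 38.5% (18.9% higher, 19.6% lower). The guide 2 share was at the background, and the counts in the lines rest on 8 genes that had passed a filter on low counts. The median log2 fold change of the 8 genes was 0.15, 0.34, 0.03 and 0.18 for guide 1, guide 2, line 1 and line 2, beside 0.00 to 0.01 in size over all genes tested. By class, the ligands had a median of -2.68 in line 1 and -2.50 in line 2, and the receptor chains 0.25 and 0.34.

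Guide 2 and guide 1 differed in 1 family gene, IL6R, beside 9.25% of all genes called in that comparison (5.51% higher, 3.74% lower). SOCS3 stood higher with guide 2 than with guide 1 by 0.33 ± 0.114 without passing (adjusted p = 0.0673, and 0.0291 to 0.312 over all alternatives). It passed under 5 of 14 alternatives, among them without sgCtrl replicate 1 (adjusted p = 0.0375) or sgCtrl replicate 3 (adjusted p = 0.047). Line 2 lay above line 1 in 3 family genes, beside 12.4% of all genes called (6.18% higher, 6.19% lower). The log2 differences were 0.31 ± 0.0904 for SOCS3 (adjusted p = 0.0211), 0.16 ± 0.0493 for OSMR (adjusted p = 0.0289) and 0.15 ± 0.0503 for IL6ST (adjusted p = 0.0411). PURPL itself was lower in line 2 than in line 1, at 70.8% of its level. SOCS3 lost this call without line 1 library c, line 2 library b or line 2 replicate 3 (adjusted p = 0.172, 0.0564 and 0.0504). IL6ST lost it without any 1 of the line 1 libraries, line 2 library a, line 2 replicate 3 or Ctrl replicate 1 (adjusted p = 0.0675 to 0.139), and OSMR without any 1 of the line 1 libraries or line 2 libraries a and b (adjusted p = 0.0838 to 0.105). With no filter on low counts IL6ST and OSMR did not pass (adjusted p = 0.0574 and 0.0698). IL6, LIF and LIFR did not pass between the lines, with log2 differences of -0.08, 0.18 and 0.02.

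Whether knockdown and overexpression acted differently was tested over all 18 libraries as the mean effect of both guides minus the mean effect of both lines, each against its own control. In that contrast 4 of the 8 genes passed, 2 higher and 2 lower, beside 33.6% of 15166 genes (18.0% higher, 15.6% lower). IL6 gave 3.36 ± 0.296 (adjusted p = 1.07e-12) and LIF 2.96 ± 0.369 (adjusted p = 1.17e-08), and both had fallen with overexpression while neither guide passed. LIFR gave -0.74 ± 0.101 (adjusted p = 7.80e-08) and OSMR -0.36 ± 0.0757 (adjusted p = 0.000152), which had the opposite sign in the 2 experiments. For SOCS3 the difference was -0.14 ± 0.134 (adjusted p = 0.459) and for IL6R -0.33 ± 0.142 (adjusted p = 0.0704). IL11 (0.62, adjusted p = 0.14) and IL6ST (0.11, adjusted p = 0.263) did not pass.

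To compare levels between receptor chains, CPM were divided by the length of all exons of each gene in GENCODE 29, with the caution that the counts also hold intronic reads. IL6ST was the most abundant chain in every group, at 107, 108 and 98.0 CPM per kb with guide 1, guide 2 and sgCtrl and 196, 218 and 203 CPM per kb in line 1, line 2 and Ctrl. OSMR followed at 18.1, 19.5 and 21.3 CPM per kb in the knockdown groups and 34.9, 39.0 and 32.5 CPM per kb in the overexpression groups. LIFR and IL6R were the rarest of the 4 chains compared, and IL11RA, which could not be read, was not placed. Their order differed between groups, since IL6R stood above LIFR with guide 1 (2.16 against 1.2 CPM per kb) and guide 2 (1.66 against 1.13), whereas LIFR stood above IL6R in line 1 (3.86 against 1.89), line 2 (3.91 against 2.06) and Ctrl (2.93 against 1.22). In sgCtrl they did not differ beyond the spread of the libraries, at 1.48 CPM per kb for LIFR and 1.49 for IL6R. Per kb of the whole span, over which reads were counted, IL6R again stood above LIFR with guide 1 (0.217 against 0.107 CPM per kb) and guide 2 (0.166 against 0.1003) and below it in line 1 (0.189 against 0.342), line 2 (0.206 against 0.347) and Ctrl (0.123 against 0.260). Per kb of exon, IL6 had 1.04 and 0.975 CPM in lines 1 and 2, against 7.20 in Ctrl, where it stood above LIFR and IL6R.

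**Figure D3:**
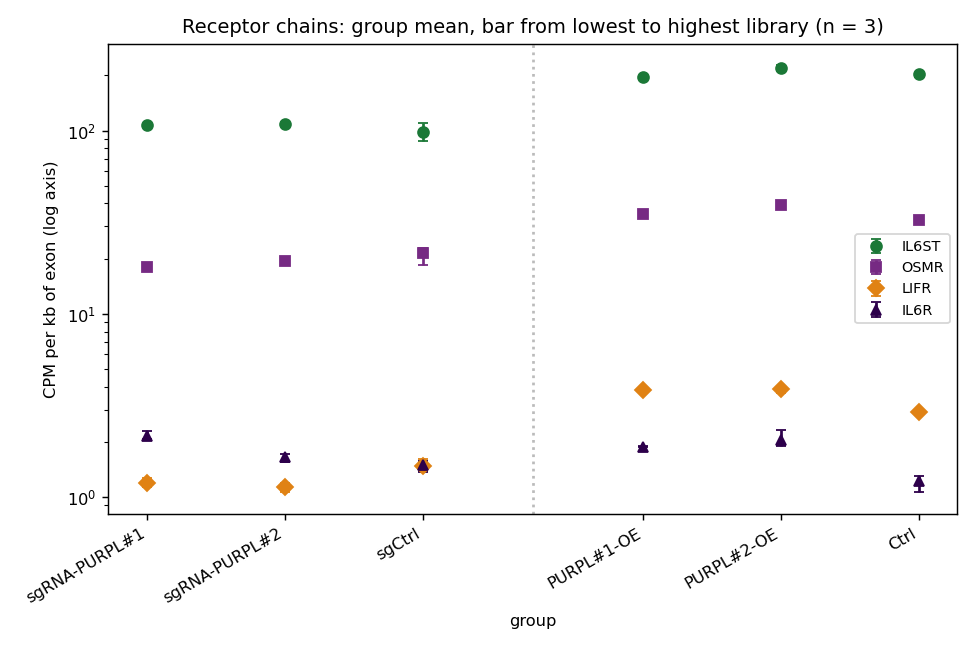
CPM per kb of exon (log axis) of 4 receptor chains, as group means with bars from the lowest to the highest library (n = 3); knockdown groups stand left of the dotted line. IL6ST lies highest and OSMR next in all 6 groups, and IL6R lies above LIFR in both guide groups and below it in the 3 overexpression groups, with the 2 overlapping in sgCtrl.

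Of 6 other ligands, 1 could be tested with knockdown and 2 with overexpression. CTF1 (cardiotrophin 1, a ligand that uses LIFR) rose in both lines, to 9.66 ± 0.656 CPM in line 1 and 10.8 ± 0.836 CPM in line 2, against 7.25 ± 1.46 CPM in Ctrl (SD, n = 3 each; log2 0.43 ± 0.125 and 0.60 ± 0.125, adjusted p = 0.00693 and 0.000306). OSM, the ligand of OSMR, had 1 count over all 18 libraries. Of 4 other chains, 3 were tested with knockdown, and IL31RA, which pairs with OSMR for interleukin 31, rose with both guides, to 1.39 ± 0.515 CPM with guide 1 and 1.39 ± 0.163 CPM with guide 2, against 0.506 ± 0.179 CPM in sgCtrl (log2 1.44 ± 0.409 and 1.42 ± 0.410, adjusted p = 0.00918 and 0.0107). These are 52, 51 and 19 counts in all.

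Downstream of the receptor, the 12 genes of JAK and STAT signalling were tested in every comparison. With overexpression 4 were higher and 2 lower in line 1 and 6 higher and 2 lower in line 2, beside 39.6% and 38.5% of all genes called. STAT3, the main transcription factor of the pathway, had 246 ± 12.7, 263 ± 22.6 and 225 ± 7.64 CPM in line 1, line 2 and Ctrl. Of the lines, only line 2 passed (log2 0.13, adjusted p = 0.0778 in line 1, and 0.23, adjusted p = 0.0021 in line 2). STAT3 was also higher with guide 1 (log2 0.19 ± 0.0596, adjusted p = 0.019), at 205 ± 4.93 CPM, against 180 ± 11.6 CPM in sgCtrl. With guide 2 it had 194 ± 2.52 CPM. The adaptor genes GAB2 (log2 0.47 and 0.44 in lines 1 and 2) and GAB1 (0.44 and 0.43) and the transcription factor STAT5B (0.33 and 0.38) rose in both lines. With guide 1, 2 of the 12 were higher and 1 lower, and with guide 2, 1 higher and 1 lower, beside 24.5% and 24.4% of all genes called. Of the 12, 0 passed in the same direction with both guides, and the share of all genes that did so was not computed.

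Of 14 other negative regulators, 11 were tested. In line 1, 3 were higher and 2 lower, and in line 2, 2 higher and 2 lower, shares near the 39.6% and 38.5% of all genes called. SOCS2, a relative of SOCS3, rose in both lines (log2 0.54 ± 0.0621 and 0.50 ± 0.0627, adjusted p = 2.68e-08 and 1.20e-07), as did PIAS3, an inhibitor of STAT3 (0.27 and 0.41). The phosphatase gene PTPN1 (-0.24 and -0.33) and SOCS6 (-0.15 and -0.16) fell. With guide 1, 1 was higher and 1 lower, and with guide 2, 0 of 11 passed by edgeR (2 at an unadjusted p under 0.05, and 0 by DESeq2). Over all genes tested, 24.5% were called with guide 1 and 24.4% with guide 2.

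Receptor shedding frees soluble IL6R from the cell surface, and 4 of its genes were tested. In each of the 4 comparisons with control 0 were higher and 2 lower by edgeR. Over all genes tested, 12.9% were lower with guide 1, 12.4% with guide 2, 20.1% in line 1 and 19.6% in line 2. DESeq2 called 1 of the 4 with guide 1, 2 with guide 2, 2 in line 1 and 1 in line 2. RHBDF2, a partner that brings the protease ADAM17 to the surface, fell in all 4, to 5.80 ± 1.14 CPM with guide 1 and 4.99 ± 1.10 CPM with guide 2, against 8.22 ± 0.442 CPM in sgCtrl, and to 1.92 ± 0.303 CPM in line 1 and 2.33 ± 0.674 CPM in line 2, against 3.57 ± 0.442 CPM in Ctrl. Its log2 fold changes were -0.50, -0.72, -0.89 and -0.64 (adjusted p = 0.0259, 0.00211, 0.000942 and 0.016). ADAM10 fell with both guides (-0.16 and -0.17) and ADAM17 in both lines (-0.25 and -0.37).

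Of 8 genes that set the decay of IL6 mRNA, 2 fell with guide 1 and 2 fell with guide 2, where 1 rose, beside 24.5% and 24.4% of all genes called. ARID5A, which stabilises IL6 mRNA, fell to 12.9 ± 0.206 CPM with guide 1 and 11.5 ± 0.924 CPM with guide 2, against 19.4 ± 1.80 CPM in sgCtrl (log2 -0.59 ± 0.106 and -0.76 ± 0.108, adjusted p = 8.97e-05 and 3.18e-06). ZFP36L1, which promotes decay of AU-rich mRNAs, fell by less (-0.21 and -0.36). With overexpression, 1 was higher and 3 lower in line 1 and 1 higher and 1 lower in line 2, beside 39.6% and 38.5% of all genes called. ZC3H12A, a nuclease that degrades IL6 mRNA, fell in both lines (log2 -0.76 ± 0.178 and -0.74 ± 0.182, adjusted p = 0.000978 and 0.00166).

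Of 10 tested inducers of IL6 and LIF, 6 were lower and 1 higher in line 1 and 5 lower and 1 higher in line 2, and 3 and 4 did not pass, beside 39.6% and 38.5% of all genes called (20.1% and 19.6% lower), with a median log2 fold change of -0.44 and -0.36. IL1B, encoding interleukin 1 beta, had 1.75 ± 0.227 CPM in line 1 and 2.72 ± 0.520 CPM in line 2, against 14.6 ± 2.15 CPM in Ctrl (log2 -3.05 ± 0.156 and -2.44 ± 0.150, adjusted p = 3.66e-16 and 3.27e-14). IL1A, encoding interleukin 1 alpha, had 1.5 ± 0.543 CPM in line 1 and 2.17 ± 0.272 CPM in line 2, against 9.22 ± 1.69 CPM in Ctrl (-2.65 ± 0.194 and -2.08 ± 0.187, adjusted p = 3.29e-12 and 2.82e-10). RELB, an NF-kappaB subunit, fell in both (-1.42 and -1.06), and so did TGFB2, a ligand of the TGF-beta receptor (-0.61 and -1.31). With knockdown IL1B fell with both guides (log2 -1.20 ± 0.175 and -1.13 ± 0.174, adjusted p = 3.82e-06 and 9.23e-06), whereas IL6 did not pass with either. TGFB2 passed in opposite directions with the 2 guides, at -0.49 and 0.36 (adjusted p = 9.94e-05 and 0.00148).

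Of 15 tested genes known as STAT3 targets, 3 were higher and 7 lower in line 1 and 4 higher and 6 lower in line 2, beside 39.6% and 38.5% of all genes called. CCL2, a chemokine for monocytes, fell to 69.3 ± 2.67 CPM in line 1 and 108 ± 5.03 CPM in line 2, against 193 ± 9.66 CPM in Ctrl (log2 -1.48 ± 0.0556 and -0.84 ± 0.0544, adjusted p = 1.56e-19 and 1.08e-13). IRF1, a transcription factor of interferon signalling (-1.23 and -0.67), and IL4R, a receptor chain for interleukin 4 (-0.93 and -0.77), fell, whereas FOS, a subunit of AP-1, rose (0.80 and 1.31). With knockdown 6 were higher and 1 lower with either guide, beside 24.5% of all genes called with guide 1 and 24.4% with guide 2. JUNB, another AP-1 subunit (log2 0.61 ± 0.149 and 0.52 ± 0.150, adjusted p = 0.0025 and 0.0115), and IRF1 (0.52 ± 0.0854 and 0.58 ± 0.0851, adjusted p = 2.57e-05 and 5.05e-06) rose with both guides.

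**Figure D4:**
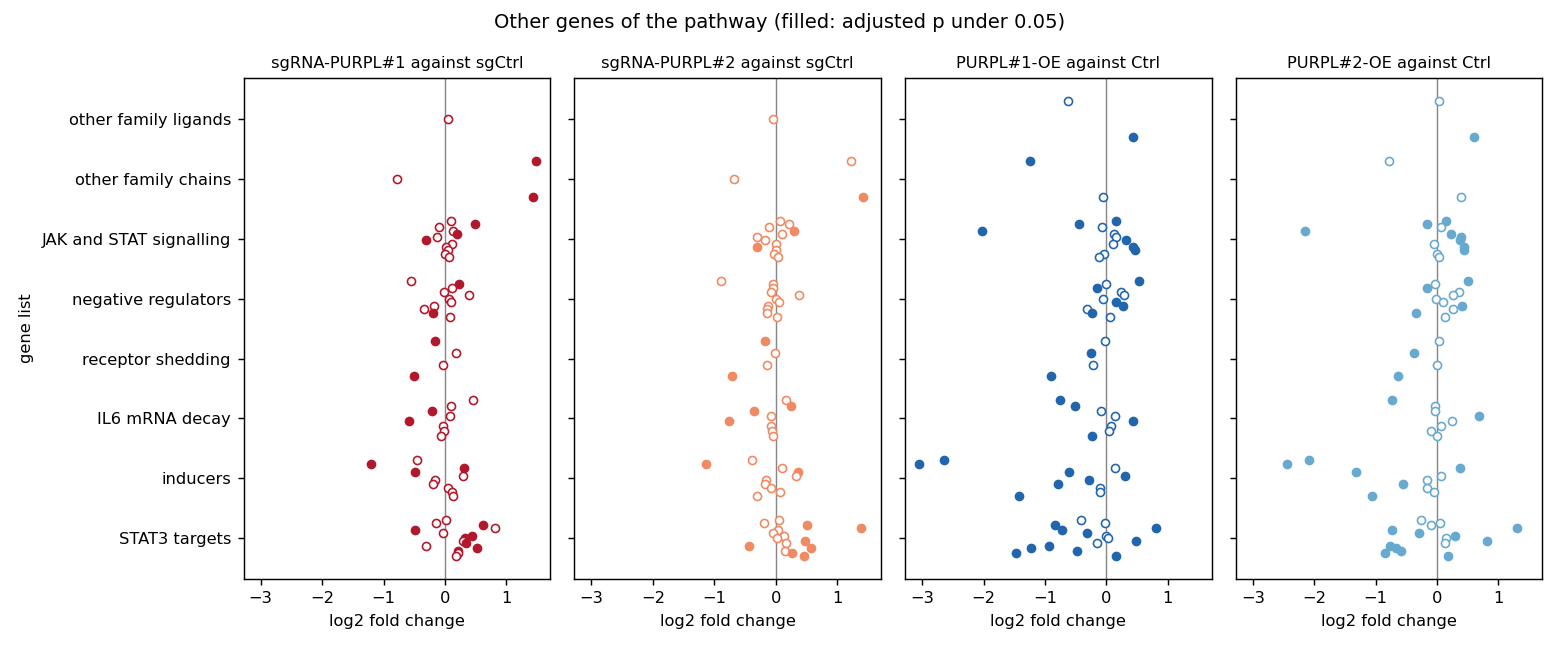
Log2 fold change (horizontal axes) of each tested gene of 8 pathway lists in the 4 comparisons with control; filled points passed at an adjusted p under 0.05 (edgeR). The inducers reach -3.05 in line 1 and -2.44 in line 2, and the knockdown panels stay between -1.20 and 1.49.

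The genes whose pattern was most like that of IL6 and of IL6R were looked up by Pearson correlation of log2(CPM + 0.5), less the control mean of each table, over 18 libraries and 13637 genes. The libraries of both lines stand apart from the rest for IL6, so this measure rests largely on that gap and is a description without a test. For IL6 the closest were CHMP5 and XAF1 (r = 0.989 each) and GBP1 (r = 0.988). XAF1 changed by -2.40 in each line, and by 0.26 and 0.50 with guides 1 and 2, on the log2 scale. GBP1 changed by -1.60 and -1.65 in lines 1 and 2 and by 0.06 and 0.49 with guides 1 and 2, and CHMP5 by -0.74 and -0.76 and by 0.09 and 0.19. For IL6R, the receptor or feedback gene with the largest mean change in a table, they were CAMLG (r = 0.937), PREPL (r = 0.919) and KLHDC2 (r = 0.911). CAMLG changed by 0.42 and 0.61 in lines 1 and 2 and by 0.26 and -0.02 with guides 1 and 2.

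Markers of the cell type were checked beside these changes. The 9 fibroblast markers summed to 16200 to 16300 CPM with guide 1, 15700 to 16300 with guide 2 and 15500 to 16800 in sgCtrl, and to 27800 to 29100 CPM in line 1, 30100 to 31400 in line 2 and 22900 to 23400 in Ctrl. Of these 9, 7 were higher and 0 lower in line 1 and 8 higher and 0 lower in line 2. Over all genes tested, 19.5% and 18.9% were higher. With guide 1, 3 were higher and 1 lower, and with guide 2, 3 higher and 3 lower, beside 24.5% and 24.4% of all genes called. PDGFRA, 1 of these markers, is 95.7% covered by a same-strand gene, so its counts come from the rest of its span. The list moved with overexpression in the direction of IL6R, LIFR and SOCS3. The part of the list in their change was not tested. Leukocytes also make IL6, and their 6 markers summed to at most 3.36 CPM in any library, and CD3E had 2 counts over 18 libraries. Among these markers, CD68 had 9 counts over 18 libraries and is 96.7% covered by a same-strand gene, so it could hardly be read. The 6 keratinocyte markers summed to 8.19 to 12.9 CPM in line 1, 7.57 to 10.7 in line 2 and 7.54 to 7.83 in Ctrl, and to 11 to 14 CPM in the knockdown experiment, with KRT5 and KRT14 at 1 count each over 18 libraries and KRT1 at 0. The 5 endothelial markers summed to 2.43 to 7.29 CPM with CDH5 at 3 counts over 18 libraries, and the 4 melanocyte markers to at most 1.43 CPM.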

How the data were processed

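Per the labels' protocols, poly(A) RNA was reverse-transcribed from random hexamers, ligated to an adaptor, amplified by PCR and sequenced in paired-end reads. No molecular identifiers are named there, and PCR copies then count separately. The labels call the molecule genomic DNA, against their own RNA protocol, which was followed here. The authors deposited raw read counts per gene for 9 knockdown and 9 overexpression libraries, a table each. Per the submitters' processing notes, the tools included DESeq2 1.34.0, featureCounts 2.0.1 of Subread, SAMtools 1.11, HISAT2 2.1.0, cutadapt 3.3 and FastQC 0.11.9, with builds hg38 and GRCh38.p13. Not given in the sources used here were the annotation release and the strand setting. The Length column equalled the whole gene span for 61544 of 61544 genes. Of 10950 genes nested in a gene of the opposite strand only, 43.6% had counts, against 0 of 9429 nested on the same strand.

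Samples were grouped by title. For overexpression, 5 columns have no replicate number and were used as libraries of their group without one, and 0 count columns were left unused. The smallest chi-square per gene between libraries of a group was 2.47, above sampling noise, so each library counts once.

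With R 4.3.3, each table was filtered by edgeR's filterByExpr (minimum count 10, minimum total 15), scaled by TMM and fitted over its 9 libraries by the robust quasi-likelihood test of edgeR 4.0.16. Adjusted p is Benjamini and Hochberg's over all genes tested, with a threshold of 0.05, and SE is the size of the log2 fold change over the root of F. A joint fit of 18 libraries tested the difference between experiments. Comparisons within an experiment share control libraries. Alternatives were DESeq2 1.42.0, RLE scaling, no filter on low counts, only the 6 libraries compared, each library left out and, for knockdown, the replicate number as a block. The fit was tested on simulated data with changes planted only in genes with more counts than the knockdown ligands had, so that test does not bear on those ligands.

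Named were the 10 family genes and, from each pathway list, at most 4 genes that passed in the same direction in both arms of an experiment, by mean change. For the ligand and for the receptor or feedback gene of largest mean change, the 3 genes of most like pattern were added. Of the genes this rule names, 1 is not reported here. STAT3, OSM and the knockdown values of TGFB2 were added after their values were seen. The family genes and lists were chosen with earlier results of these data known, so their counts are descriptions.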

Additional observations from a re-analysis of the deposited data

Results flagged for a closer look

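Differences between the 2 arms of an experiment, or between the experiments, passed their own tests for the family genes named in this section. IL6R was lower with guide 2 than with guide 1 (log2 -0.38 ± 0.115, adjusted p = 0.0327), and line 2 was higher than line 1 for IL6ST (0.15 ± 0.0503, adjusted p = 0.0411), OSMR (0.16 ± 0.0493, adjusted p = 0.0289) and SOCS3 (0.31 ± 0.0904, adjusted p = 0.0211). The IL6R call was lost in 7 of 14 alternatives. Between the lines, the calls of IL6ST, OSMR and SOCS3 were lost in 7, 6 and 3 of 13 alternatives.

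The signed log2 effect of knockdown minus that of overexpression was positive for IL6 (3.36 ± 0.296, adjusted p = 1.07e-12) and LIF (2.96 ± 0.369, adjusted p = 1.17e-08). Both genes had fallen with overexpression, and neither passed with either guide. The same difference was negative for LIFR (-0.74 ± 0.101, adjusted p = 7.80e-08) and OSMR (-0.36 ± 0.0757, adjusted p = 0.000152). Each of these 4 kept its call under every alternative run.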

How the results depend on the processing

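Against Ctrl, 5 family genes were called in line 1 and 6 in line 2 under each of the 13 alternatives, and IL6 stayed between -2.90 and -2.73 in line 1 and between -3.00 and -2.74 in line 2. Of 816 alternative values of single genes, 756 kept direction and call, 38 lost a call, 10 gained one and 12 changed sign. The number of family genes called was 4 with guide 1, but 2 with DESeq2 and 1 to 4 with a library left out, and 2 with guide 2 (2 to 4 with a library left out). For guide 2 against guide 1 it was 1, but 0 with DESeq2, 2 with only the 6 libraries compared and 0 to 2 with a library left out. For line 2 against line 1 it was 3, but 1 with no filter and 0 to 3 with a library left out. The joint contrast gave 4 to 5, the gain being IL6ST without sgCtrl replicate 3 (0.20, adjusted p = 0.0306, range 0.0306 to 0.737 over all alternatives). The cause was not tested.

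The values that changed sign were uncalled. With a library left out, guide 1 gave -0.088 to 0.50 for IL6, -0.14 to 0.58 for LIF and -0.24 to 0.013 for IL11, and guide 2 against guide 1 gave -0.052 to 0.67 for LIF. Line 2 against line 1 gave -0.22 to 0.042 for IL6, with 0.026 without line 1 library a, and -0.17 to 0.13 for IL11, with 0.050 and 0.0080 without line 1 library a and line 2 replicate 3. LIFR gave -0.0095 to 0.065, with -0.0033 and -0.0045 without line 2 library a and line 2 replicate 3.

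Same-numbered knockdown libraries had correlations of deviations from -0.112 to 0.0447, with 0 of 9 over 0.1, so the numbers did not pair them. With the replicate block, 3250, 3217 and 1204 genes were called for guide 1, guide 2 and guide 2 against guide 1 (3417, 3393 and 1288 without it), and LIFR with guide 1 (adjusted p = 0.0502) was the family call lost. No paired analysis was possible for overexpression because 5 columns there carry no replicate number. IL6, LIF and IL11 rest on 8 to 42 counts per knockdown library, which limits what could be detected.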
